A study of Homo sapiens with 8 samples.

Results

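The restart of transcription in undamaged cells was followed in 4 of the 8 GRO-seq libraries of the series, those without UV, as 40 min over 10 min after DRB removal. Every gene name was represented by the transcript with the largest span, and of 19351 gene names 17357 had enough reads to be tested. The cells were SV40-immortalized human fetal lung fibroblasts (MRC5 by their labels, MRC5_VA by the methods text). They were wild type (WT) or carried a lentiviral shRNA that knocks down (KD) the lncRNA *ZFAS1*. The 4 groups were unirradiated WT and KD cells, each taken after 10 min and after 40 min, and all had been held in 100 µM DRB for 3.5 h before release, and nuclei were then run on for 5 min. Each group was 1 library, so the comparison consisted of 2 matched pairs, WT and KD. Nothing in the labels says that the pairs were cultured apart, and a p-value therefore measures the spread between these libraries only.

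RNA polymerase II pauses shortly after the start of most genes and is released into the gene body by P-TEFb, the kinase that DRB inhibits. Polymerases that are already in the gene body finish their transcripts under the drug, so long genes empty during the block. When DRB is washed out, polymerases enter from the start and a wave of nascent RNA moves toward the 3′ end. GRO-seq reads engaged polymerases, and a count over a gene's whole span therefore holds the part the wave has reached together with the part it has not. In bulk nuclei, fewer transcribing cells and fewer polymerases per cell cannot be told apart.

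The libraries held 10.2 and 21.1 M reads over genes in WT at 10 and 40 min, and 10.6 and 13.0 M in KD. Levels are reads scaled to a common library size by TMM (CPM), which assumes that most genes do not change, and a read density is CPM per kb of span. Genes with a mean density of at least 1 CPM per kb, 5458 in number, are called active here. Of 8 fibroblast markers tested 6 were active, with a highest density of 37.7 CPM per kb, whereas 0 of 5 endothelial, 0 of 3 immune, 0 of 4 muscle and 0 of 4 neuron markers were. Of 4 epithelial markers 1 was active (*KRT18*, a keratin). *ZFAS1*, the knocked-down lncRNA, had a level of 509 CPM at 10 min and 1781 at 40 min in WT, and of 721 and 1598 in KD, so it was not lower in the knockdown at 10 min. An shRNA acts on the finished RNA, so these nascent reads do not check the label.

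By edgeR, 2678 of 17357 genes (15.4%) were higher at 40 min and 2730 (15.7%) were lower, at an adjusted p under 0.05. All 2678 rises and 2729 of the 2730 falls had the same direction in both pairs. The calls were made from these same pairs, so this is no separate support, and 81.8% of all genes tested had the same direction. The rises lay in mid-length genes, with a median span of 42.6 kb and a median log2 ratio of 1.28 in the WT pair and 1.45 in the KD pair. The falls lay in genes of low density, with a median of 0.32 CPM per kb against 1.01 CPM per kb for the rises. The fit leaves 1 residual degree of freedom and takes 28.0 further degrees from the trend across all genes, so a gene's own disagreement between the pairs has little weight in its p-value.

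The number of falls depended on the scaling and the number of rises much less. Library totals gave 2824 rises and 6054 falls, RLE size factors 3717 and 3635, TMM on genes of 5 to 20 kb 3905 and 1647, and DESeq2 3268 and 2465. Reads over 91 genes of tissue-restricted families (defensins, GABA and glutamate receptors, CEACAM and UGT2 genes) were used as a further reference, chosen after the data were seen. Their summed density was 0.29 CPM per kb in WT at 10 min and 0.11 at 40 min, and 0.39 and 0.31 in KD. These families thus lost reads in both pairs against the scaling, by more in WT. Scaled on them, 4648 genes were higher and 70 lower, and all 2678 rises were among the former. This scaling raises every ratio, because its reference fell in both pairs, so that the rises stayed is no check of them. The share of rises among the calls therefore ran from 31.8% to 98.5%, against 49.5% with TMM, and a fall below is a fall against the average gene. The median log2 ratio of all genes tested was −0.45 in WT and −0.05 in KD with TMM, −0.47 and −0.42 with library totals, and 0.91 and 0.27 with the restricted families.

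As a description that uses no test, 1781 of 13424 genes with at least 50 reads in a library of each pair (13.3%) were 2-fold or more higher in both pairs, and 419 (3.12%) were 2-fold or more lower. Of the 1781, 1497 (84.1%) spanned 20 to 200 kb, against 63.7% of the 13424. Only 20 of the 1781 spanned over 200 kb, against 1170 of the 13424. Among the 2-fold rises 1755 were also called by edgeR.

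The ratio rose with span to a maximum near 80 kb and fell again beyond. Active genes under 5 kb had a median log2 ratio of −0.74 in the WT pair and −0.32 in the KD pair. The medians were −0.06 and 0.32 at 10 to 20 kb, 0.36 and 0.75 at 20 to 40 kb, 0.64 and 1.01 at 40 to 60 kb, and 0.72 and 1.10 at 60 to 100 kb. Beyond this they dropped to 0.42 and 0.81 at 100 to 200 kb, −0.21 and 0.44 at 200 to 400 kb, and −0.86 and 0.05 above 400 kb. In both pairs the running median over genes ordered by span peaked at 80.4 kb, with 0.75 in WT and 1.14 in KD. It stayed within 0.1 of that maximum from 45.1 to 96.8 kb in WT and from 54.1 to 101 kb in KD.

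**Figure D1:**
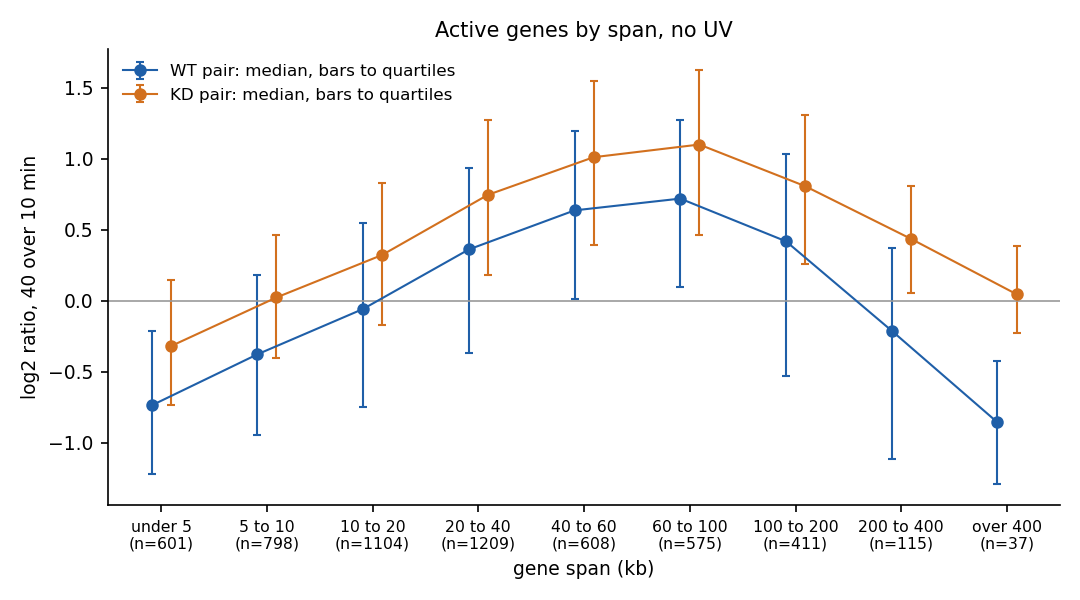
Log2 ratio of 40 over 10 min (vertical axis) of active genes without UV, by gene span in kb (horizontal axis, with the number of genes n). Points are medians of the WT pair (blue) and the KD pair (orange), and bars run to the quartiles, showing the spread between genes and not between libraries. Both lines climb from −0.74 and −0.32 under 5 kb to 0.72 and 1.10 at 60 to 100 kb and fall above 100 kb.

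The calls followed the same course. Of 601 active genes under 5 kb, 14 (2.33%) were higher and 116 (19.3%) lower. Of 1209 at 20 to 40 kb, 422 (34.9%) were higher and 83 lower. At 40 to 60 kb 281 of 608 (46.2%) were higher, and at 60 to 100 kb 266 of 575 (46.3%). At 100 to 200 kb 112 of 411 (27.3%) were higher. At 200 to 400 kb 5 of 115 were, and above 400 kb 0 of 37 were called in either direction by edgeR, with 1 higher and 1 lower at an unadjusted p under 0.05. For comparison, 24.7% of all 5458 active genes were higher and 8.50% lower.

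The medians of density give the levels behind these ratios. They are relative to the scaling, so a loss in short genes and a gain in longer ones cannot be told apart. In genes of 60 to 100 kb the median density went from 1.36 to 2.19 CPM per kb in WT and from 0.95 to 1.92 in KD. In genes under 5 kb it went from 3.61 to 2.36 in WT and from 2.07 to 1.63 in KD. At 10 min the density was thus highest in the shortest genes in both pairs, and at 40 min it differed far less between span classes up to 100 kb. The difference between the medians of 40 to 100 kb and 5 to 20 kb genes was 0.86 on the log2 scale in each pair. Because this is a difference within a pair it moved little with the scaling, and it was 0.64 and 0.63 when activity was judged from the 10 min libraries alone.

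A span count mixes near and far parts of a gene, so segments were also read. Where 2 transcripts of a gene shared a start or an end, the reads of the shorter were subtracted from those of the longer, which left 531 segments of at least 2 kb in 460 active genes. Distance is from the start of the longer transcript, which can lie inside the gene. The 207 segments sharing a start lie downstream of it. The 324 sharing an end begin at the start, so they still mix near and far parts. For them distance and length cannot be told apart. Segments centred under 5 kb from the start had a median log2 ratio of −0.18 in WT and 0.11 in KD. The medians rose to 0.65 and 0.95 at 20 to 30 kb and 0.63 and 0.91 at 30 to 50 kb. They then fell to 0.33 and 0.79 at 50 to 70 kb, −0.03 and 0.46 at 70 to 100 kb, and −0.90 and −0.22 at 100 to 150 kb. The median of segments at 30 to 100 kb was above that of segments under 10 kb by 0.33 in WT and 0.54 in KD. When segments had to be at least 5 kb this was 0.16 in WT and 0.43 in KD. With those sharing a start only it was 0.25 in WT and 0.45 in KD, and with those sharing an end only 0.68 and 0.59. Of 68 segments at 30 to 50 kb, 44 were higher in both pairs and 9 lower in both. Of 22 at 100 to 150 kb, 4 were higher in both and 12 lower in both, and of 8 at 150 to 250 kb 0 were higher in both and 8 lower in both.

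**Figure D2:**
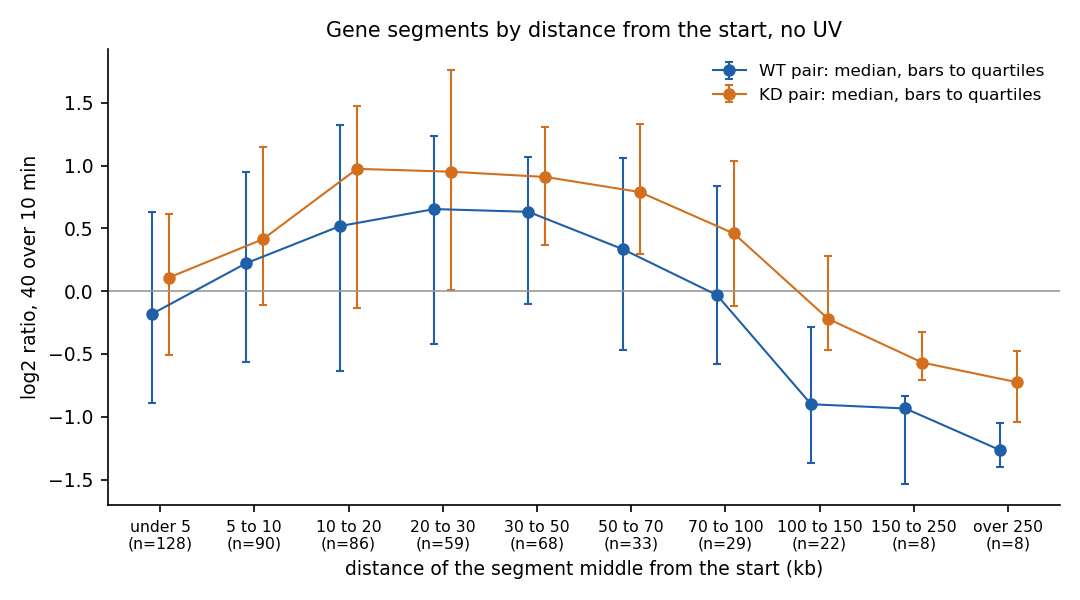
Log2 ratio of 40 over 10 min (vertical axis) of gene segments without UV, by the distance of the segment's middle from the transcript start in kb (horizontal axis, with the number of segments n). Points are medians of the WT pair (blue) and the KD pair (orange), with bars to the quartiles over segments. The medians are at or above 0.63 between 20 and 50 kb in both pairs and are below 0 from 100 kb on. Segments sharing an end begin at the start, so their distance rises with their length.

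Parts of single long genes could be read in the same way. *EPB41L2*, which encodes a membrane skeleton protein, has transcripts that start at different places. Its first 62.5 kb (chromosome 6, 131000767 to 131063245, hg38) went from 2.99 to 10.4 CPM per kb in WT and from 1.72 to 6.59 in KD. The next 132 kb (130868907 to 131000767) went from 3.47 to 3.58 in WT and from 1.85 to 2.35 in KD. This downstream stretch is also the beginning of a shorter transcript. The upstream stretch rose by a log2 ratio of 1.80 and 1.93, and the downstream one changed by 0.04 and 0.35. In *ARHGAP6*, a GTPase activating gene of 528 kb on chromosome X, the first 400 kb (11265975 to 11665701) went from 0.50 to 0.28 in WT and from 0.47 to 0.37 in KD. Its last 5.85 kb, over 522 kb from the start, went from 1.22 to 0.35 and from 1.87 to 0.94. For scale, the restricted families went from 0.29 to 0.11 in WT and from 0.39 to 0.31 in KD. The share of background reads in the first 400 kb of *ARHGAP6* was not tested.

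*RUNX1*, a transcription factor gene of 262 kb on chromosome 21, rose in all 3 parts that could be separated. Its first 161 kb went from 0.80 to 2.07 CPM per kb in WT and from 0.64 to 1.64 in KD. A stretch of 58.7 kb downstream of a later start (34829970 to 34888690) went from 5.54 to 13.5 and from 4.20 to 10.3. A stretch of 33.5 kb near its end (34787801 to 34821279) went from 3.27 to 5.89 and from 1.58 to 2.95. As a whole *RUNX1* had a log2 ratio of 1.31 ± 0.57 (SE, 2 pairs) and missed the threshold (edgeR adjusted p = 0.076). *MID1* and *COL21A1*, of 388 and 338 kb, stayed between −0.63 and 0.19 in all their segments.

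Long genes near the far end of the wave differed from each other. *PPP1R12A*, the targeting subunit of myosin phosphatase (162 kb, chromosome 12, 79773568 to 79935097), had 1513 and 9015 reads in WT and 1259 and 4083 in KD at 10 and 40 min. It rose by a fitted log2 ratio of 1.67 ± 0.43 (SE, edgeR adjusted p = 0.00624), 2.94-fold in WT and 3.44-fold in KD. *CTNNBL1*, a splicing-associated gene of 178 kb, had 941 and 3060 reads in WT and 1355 and 1733 in KD. Its log2 ratios of 0.68 and 0.44 did not pass (edgeR adjusted p = 0.22, 2 of 2 pairs higher). *KIFAP3*, a kinesin-associated gene of 153 kb, was at −0.04 and 0.20. Its density was low, at 0.39 and 0.38 CPM per kb in WT and 0.45 and 0.51 in KD. The restricted families had 0.29 and 0.11 in WT and 0.39 and 0.31 in KD, and the share of background reads was not tested. The difference of these long genes from each other was not tested.

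The largest rises in both pairs were in genes with few reads at 10 min. *INTS6*, a subunit of the Integrator complex that cleaves nascent RNA (91.6 kb, chromosome 13, 51361565 to 51453207), had 302 and 4681 reads in WT and 224 and 1932 in KD. Both 40 min libraries stood far above both 10 min libraries, and the fitted log2 ratio was 3.06 ± 0.38 (SE, 2 of 2 pairs, edgeR adjusted p = 1.42e-05). *CDK7*, the kinase of TFIIH that phosphorylates the polymerase tail (42.5 kb, chromosome 5), had 113 and 1603 reads in WT and 112 and 708 in KD, or 6.92-fold and 6.62-fold. *UBAP1*, an ESCRT-I subunit, rose 7.84-fold and 6.30-fold, and *CMC1*, a mitochondrial copper-handling protein, 7.42-fold and 6.73-fold.

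The other genes that moved this far in both pairs were *KATNBL1*, a regulator of the microtubule-severing katanin (6.56-fold and 6.95-fold), *CCDC66* (6.24 and 6.94), *MFSD14C* (6.85 and 6.67) and the zinc-finger genes *ZNF93* (7.26 and 7.91) and *ZNF182* (6.85 and 8.61). The pseudogenes *DPY19L2P1* (9.64-fold and 8.90-fold) and *SUZ12P1* (log2 ratios of 2.85 and 3.31) resemble their parent genes, and their reads cannot be placed with certainty. *AC008147.2*, a lncRNA of 5.78 kb with 10.0-fold and 9.88-fold, lies wholly within another gene on the same strand, whose reads it shares. Of these 12 genes, 11 spanned 29.1 to 91.6 kb. Set against active genes of like span, *INTS6* was still higher by 2.25 and 2.09 on the log2 scale and *CDK7* by 2.22 and 1.79.

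**Figure D3:**
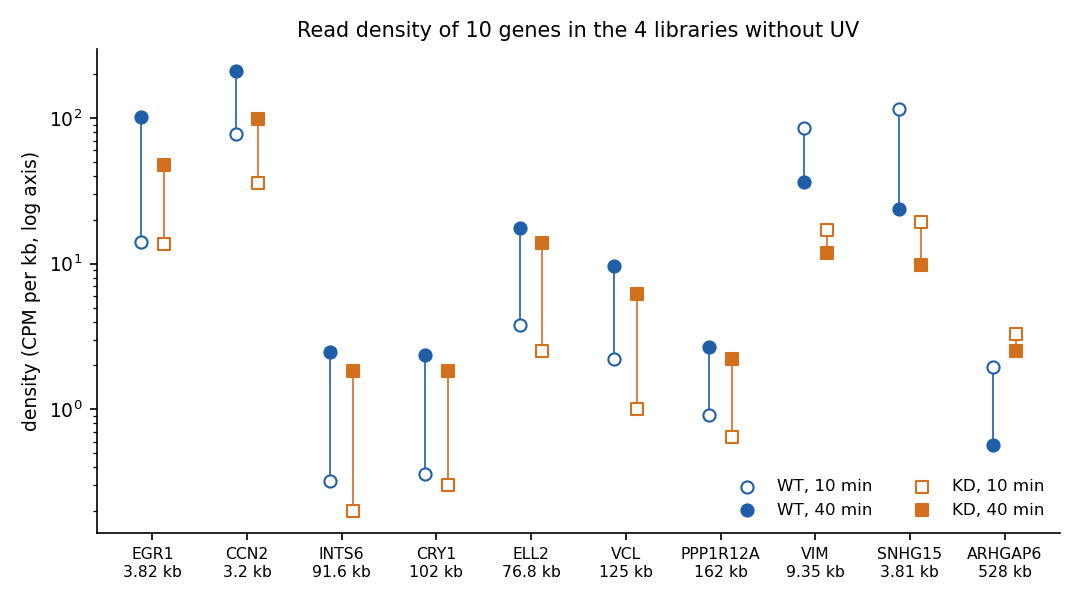
Read density in CPM per kb (vertical log axis) of 10 genes, with their span under the name, in the 4 libraries without UV. Open symbols are 10 min and filled symbols 40 min, circles WT and squares KD, and each symbol is 1 library with no error bar. *EGR1* to *PPP1R12A* are higher at 40 min in both pairs, and *VIM*, *SNHG15* and *ARHGAP6* are lower in both.

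Genes of 75 to 130 kb named for their lists rose in part. *ELL2*, which keeps the polymerase from stalling, went from 291 to 1348 CPM (WT) and from 192 to 1058 CPM (KD) (fitted log2 ratio 2.33 ± 0.56, edgeR adjusted p = 0.00381). *VCL*, the focal adhesion protein vinculin, rose 4.38-fold and 6.20-fold. *E2F3*, an S-phase transcription factor, rose 6.75-fold and 5.33-fold, and *CRY1*, a repressor of the circadian clock, 6.45-fold and 6.02-fold. In each of these genes the lower 40 min library was above the higher 10 min library. *TGFB2*, a secreted growth factor, rose 3.21-fold and 3.96-fold. Other abundant genes of these spans did not pass, among them *MYH9*, a nonmuscle myosin heavy chain (107 kb), at 0.21 and 0.43, and *KMT2E*, a SET domain protein (99.9 kb), at 0.51 and 0.94.

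A few genes at the ends of the span range went against their class. Above 200 kb, 5 active genes were higher, all of them 203 to 240 kb long, and they are named here after their values were seen. *STARD13*, a GTPase activating gene, rose 3.89-fold and 3.99-fold, *PDLIM5*, a cytoskeletal adaptor, 2.71-fold and 3.31-fold, and *MYO1E*, a class I myosin, 2.59-fold and 2.40-fold. *RBMS1* rose 2.29-fold and 2.13-fold and *PTPN14*, a phosphatase that restrains YAP, 2.17-fold and 2.63-fold. Under 5 kb, 14 active genes were higher. Besides *EGR1*, *FOS* and *CCN2* they included *CXCL1*, *CXCL2*, *CXCL8*, *DUSP1*, *SAT1* and *MIR22HG*, likewise picked out after their values were seen. *SAT1*, which degrades polyamines, rose 3.91-fold and 3.55-fold, *DUSP1*, a MAP kinase phosphatase, 2.94-fold and 2.26-fold, and *CXCL1*, a neutrophil chemokine, 5.24-fold and 4.07-fold from 8 and 13 reads at 10 min.

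Immediate early genes are short, need no new protein for their induction and are read within minutes of a stimulus. *EGR1*, an early growth response factor (3.82 kb, chromosome 5, 138465479 to 138469303), had 548 and 8052 reads in WT and 633 and 2092 in KD, or 7.23-fold and 3.50-fold (fitted log2 ratio 2.33 ± 0.42, edgeR adjusted p = 0.000326). *FOS*, a subunit of AP-1, had 104 and 665 reads in WT and 89 and 248 in KD, or 3.12-fold and 2.92-fold. *SRF*, the factor that binds CArG boxes in such promoters, had 133 and 641 reads in WT and 114 and 204 in KD, or 2.36-fold and 1.89-fold. These were the 3 of 20 members called, a share (15%) near the 15.4% of all genes tested, 0 were lower, and the list's medians were 0.30 in WT and 0.04 in KD against −0.45 and −0.05 over all genes tested. Library totals and RLE size factors turned the sign of a median. *FOSL2* was at −0.05 and 0.15, so the list did not move as a whole.

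The promoters of these 3 genes are shown because they are the called members of the list. They are from RefSeq (GRCh38.p14), 250 bases before to 50 after the start, with CArG boxes, cAMP response elements (TGACGTCA) and AP-1 sites (TGANTCA) on either strand in capitals.
EGR1 (chr5:138465229-138465528, plus strand): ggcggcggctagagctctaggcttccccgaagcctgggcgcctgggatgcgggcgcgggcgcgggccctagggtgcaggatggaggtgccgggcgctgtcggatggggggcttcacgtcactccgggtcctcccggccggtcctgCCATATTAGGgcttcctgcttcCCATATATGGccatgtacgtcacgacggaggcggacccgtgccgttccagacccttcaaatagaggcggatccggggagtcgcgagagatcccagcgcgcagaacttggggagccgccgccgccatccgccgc
SRF (chr6:43171019-43171318, plus strand): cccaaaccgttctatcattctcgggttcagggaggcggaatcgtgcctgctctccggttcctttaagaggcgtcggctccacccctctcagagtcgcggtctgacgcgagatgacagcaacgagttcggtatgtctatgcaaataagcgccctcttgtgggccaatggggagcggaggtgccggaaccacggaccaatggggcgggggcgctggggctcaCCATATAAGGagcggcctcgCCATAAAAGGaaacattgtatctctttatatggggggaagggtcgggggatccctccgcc
FOS (chr14:75278578-75278877, plus strand): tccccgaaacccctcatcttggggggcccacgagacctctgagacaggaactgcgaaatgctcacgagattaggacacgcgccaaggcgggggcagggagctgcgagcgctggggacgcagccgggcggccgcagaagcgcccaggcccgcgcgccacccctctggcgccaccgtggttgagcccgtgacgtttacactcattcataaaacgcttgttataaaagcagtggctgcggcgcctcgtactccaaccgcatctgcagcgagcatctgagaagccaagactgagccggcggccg

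The *EGR1* and *SRF* windows each held 2 CArG boxes that did not overlap another of these motifs, and the *FOS* window held no match to the 3 motifs as written. Bases outside the window and other spellings of the motifs were not searched, so a missing match does not show that a gene lacks such a site. Of the 20 members, 14 had a promoter in the table. A CArG box was found in 2 of these 14 (14.3%) and in 1.29% of 27305 promoters, a cAMP response element in 1 and in 1.98%, an AP-1 site in 1 and in 7.76%, and a GC box (GGGCGG) in 11 and in 44.6%. A match is a run of letters and does not show that a factor was bound.

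Feedback inhibitors of growth factor signalling, which dampen the MAP kinases that drive early genes, were higher more often than the background of 15.4%. Of 17 tested, 8 rose and 2 fell, with medians of 1.07 in WT and 0.84 in KD. Of the 12 active members 6 rose, against 24.7% of all active genes. *SPRED1*, a Ras pathway inhibitor of 104 kb, had 1298 and 10673 reads in WT and 760 and 4759 in KD (fitted log2 ratio 2.37 ± 0.46, edgeR adjusted p = 0.00062). *DUSP10*, a phosphatase of stress kinases, had log2 ratios of 1.07 and 1.05, a call that was lost when only genes with 50 reads in every library were tested. The 2 that fell were *SPRY1*, with 58 and 44 reads in WT and 93 and 43 in KD, and *DUSP8*, at −1.85 and −0.94. Because the median ratio differed between span classes, each active gene was also read against the median of the active genes nearest to it in span, a difference on the log2 scale that no rescaling of libraries changes. By this difference from genes of like span 39.7% of active genes were above in both pairs, and of 12 active feedback inhibitors 11 were.

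Other lists stood above genes of like span. Of 16 active SR protein and CLK kinase genes, which govern splicing, 13 were above in both pairs and 2 below, and 6 of 19 tested rose. *CLK1* and *CLK4*, named after their values were seen, are kinases of SR proteins. *CLK1* had log2 ratios of 1.99 and 1.81 and *CLK4* of 1.91 and 2.14. Of 12 active p53 targets 9 were above and 0 below, and 9 of 26 tested rose, among them *MDM2*, the p53 ubiquitin ligase (1.81-fold and 3.12-fold), and *TNFRSF10B*, a death receptor (2.49-fold and 3.87-fold). Of 12 active NF-kB and inflammatory genes 9 were above and 3 below, and 7 of 22 tested rose, with *CXCL8* at 3.10-fold and 4.28-fold from 59 and 69 reads at 10 min. *NFKB2*, an NF-kB subunit, and *LIF*, a cytokine, fell. *CXCL8*, *NFKB2* and *LIF* are named after their values were seen. Of 126 active ZNF genes 76 were above and 31 below. Of 436 tested 147 rose (33.7%) and 31 fell (7.11%), against 15.4% and 15.7% of all genes tested. The shares that rose were 31.6% of the SR protein and CLK kinase genes, 34.6% of the p53 targets and 31.8% of the NF-kB and inflammatory genes. Among active genes 24.7% rose and 8.50% fell. Of the active members 5 of 16 SR protein and CLK kinase genes rose, 5 of 12 p53 targets, 4 of 12 NF-kB and inflammatory genes and 57 of 126 ZNF genes.

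Among genes of the transcription machinery the shares of called members can be read against the 15.4% higher and 15.7% lower of all genes tested. Of 15 pause release factors 3 (20%) rose, a share near it. These were *CCNT1* and *CCNT2*, the cyclins of P-TEFb (2.60-fold and 2.76-fold, and 3.22-fold and 3.69-fold), and *LARP7*, which holds P-TEFb in its inactive complex (2.14-fold and 3.48-fold). Of 24 productive elongation factors 11 rose and 1 fell (*TCEA2*), but with a median span of 54.8 kb their active members lay at −0.08 and 0.23 against genes of like span. *CDC73*, a PAF1 complex subunit, was at −0.44 in WT and 1.01 in KD, so its pairs moved apart. Of 12 Integrator subunits 6 rose and 0 fell, and of 10 polymerase II subunits 2 (20%) rose. These were *POLR2B* and *POLR2D*, at 0.98 ± 0.37 and 0.87 ± 0.34 (fitted log2 ratio and SE, edgeR adjusted p = 0.0427 and 0.048), and both calls were lost when libraries were thinned to the smallest total.

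Of 31 genes of TFIIH and nucleotide excision repair, the pathway that removes UV lesions, 11 rose (35.5%) and 0 fell, with medians of 0.37 and 0.89. Besides *CDK7* they included its partner *MNAT1* (235 kb, 2.14-fold and 2.73-fold). *RAD23B*, the most abundant, was at 0.18 and 0.67 and did not pass. The active members were at 0.09 and 0.12 against genes of like span, with 10 above and 8 below, against 39.7% above among all active genes. Of 25 G1/S and replication genes 7 rose (28%), *E2F3* among them, and of 21 active members 11 were above and 4 below. Of 19 mitotic genes 6 rose (31.6%), and of 18 active members 7 were above and 7 below. Of all genes tested 15.4% rose, and of all active genes 24.7%. Among active members alone 6 of 20 repair, 6 of 21 G1/S and 5 of 18 mitotic genes rose.

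Among the larger families, 18 of 45 ubiquitin-specific proteases rose and 5 fell, 18 of 55 RAB GTPases rose and 5 fell, and 15 of 51 DEAD and DEAH box helicases rose and 0 fell. Proteasome subunits had 12 of 45 higher and 2 lower, mitochondrial ribosomal proteins 15 of 76 higher and 3 lower, and complex I subunits 7 of 36 higher and 2 lower. The higher shares of the last 2 families (19.7% and 19.4%) were near the 15.4% of all genes tested, and that of the ubiquitin-specific proteases was 40.0%. Of all active genes 24.7% rose. Among active members 10 of 17 ubiquitin-specific proteases, 13 of 26 RAB GTPases, 8 of 32 helicases and 11 of 39 proteasome subunits rose. So did 6 of 50 active mitochondrial ribosomal genes and 4 of 25 active complex I genes. Against genes of like span, 24 of 50 active mitochondrial ribosomal genes were above in both pairs and 9 below, and 21 of 39 active proteasome genes above and 9 below, whereas 17 of 77 active solute carriers were above and 47 below. Of 15 TGF-beta and YAP targets 5 rose and 0 fell, with *CCN2*, a matricellular growth factor, going from 2535 to 13952 reads in WT and from 1390 to 3593 in KD (fitted log2 ratio 1.45 ± 0.45, edgeR adjusted p = 0.0187).

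**Figure D4:**
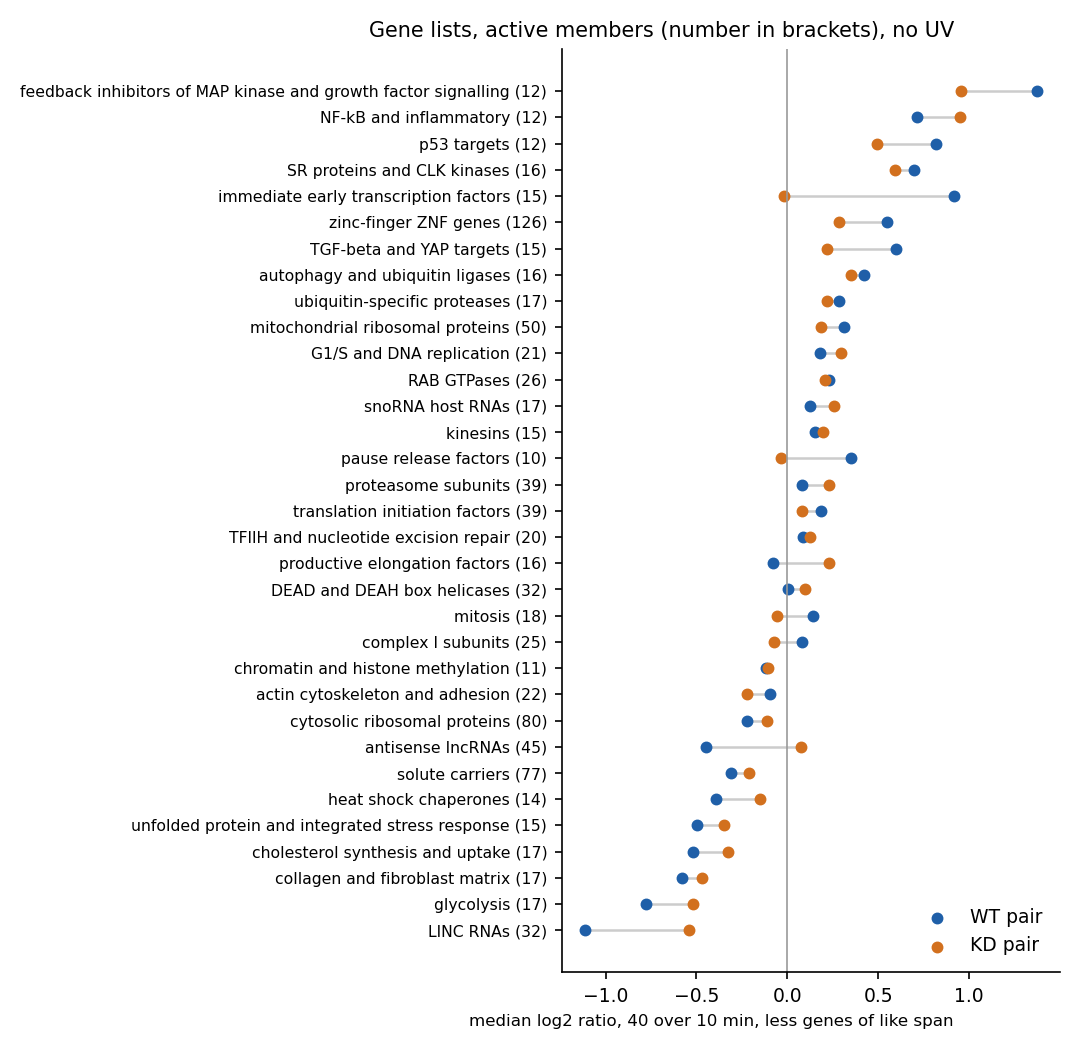
Median log2 ratio of 40 over 10 min, less the median of active genes of like span (horizontal axis), for the 33 gene lists with at least 10 active members (number in brackets). Blue points are the WT pair and orange points the KD pair, joined by a line, with no error bar. Feedback inhibitors lie highest at 1.37 and 0.96, and glycolysis and LINC RNAs lowest.

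Genes of glycolysis, which turns glucose into pyruvate and lactate, lay below genes of like span. All 17 active members were below in both pairs, with medians of −0.78 and −0.52, whereas 2218 of 5458 active genes were. *LDHA*, lactate dehydrogenase, went from 939 to 515 CPM (WT) and from 266 to 197 CPM (KD) and did not pass. *TPI1*, triosephosphate isomerase, went from 123 to 57.5 CPM (WT) and from 39.1 to 23.2 CPM (KD) and was the 1 of 20 called (fitted log2 ratio −0.93 ± 0.33, edgeR adjusted p = 0.0339), a call lost with TMM on genes of 5 to 20 kb and without the filter on low counts. The share called lower (5%) was under the 15.7% of all genes tested and the 8.50% of active genes. *ENO1*, enolase, was at −0.92 and −0.02. It turned to 1.15 when its smallest transcript was read in place of its largest.

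Several other lists had more members below genes of like span than above. Over all 5458 active genes 2218 were below in both pairs and 2166 above. Of 17 active cholesterol synthesis genes 13 were below in both pairs and 3 above, of 80 active cytosolic ribosomal protein genes 40 and 18, of 14 heat shock chaperones 8 and 3, and of 17 collagen and matrix genes 11 and 2. Of 23 genes of the unfolded protein and integrated stress response 4 rose (17.4%), a share near the 15.4% of all genes tested. In the same list 1 fell (4.35%), against 15.7% of all genes tested, and of 15 active members 4 were above and 8 below. *HSPA5*, the chaperone BiP, fell to 0.33-fold and 0.67-fold, while *DDIT3*, a stress transcription factor, rose from 5 and 8 reads to 86 and 35. The other rises were *EIF2AK3*, the stress kinase PERK (1.45 and 0.82), *HERPUD1*, of protein degradation at the endoplasmic reticulum (1.10 and 0.96), and *PPP1R15B*, a phosphatase subunit (1.24 and 1.29). Fibroblast markers had 0 of 6 above and 5 below. *VIM*, vimentin, went from 799 to 342 CPM (WT) and from 159 to 110 CPM (KD). *FN1*, fibronectin, went from 2764 to 2400 CPM (WT) and from 475 to 1420 CPM (KD). Neither passed. At 10 min the 8 markers summed to 4897 CPM (WT) and 1141 CPM (KD), so the pairs began far apart.

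Density itself moved with these results. In the 1092 active genes with the highest density, from 3.65 CPM per kb up, the medians against genes of like span were −0.25 in WT and 0.00 in KD, and 31.9% were above in both pairs and 44.6% below. In the 1092 with the lowest density they were 0.09 and −0.05, with 41.7% above and 38.8% below. Of the glycolytic genes 9 were in the densest group, all 9 of them below, and of the SR protein and CLK kinase genes 12 were, 10 of them above. The part of density in the results on these lists was not tested.

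The snoRNA host RNAs carry small nucleolar RNAs in their introns and were the densest list, at a median of 65.2 CPM per kb over 17 active members. *SNHG1* went from 11024 to 10835 CPM (WT) and from 8053 to 14163 CPM (KD), and *GAS5* from 6995 to 7690 CPM (WT) and from 8874 to 12017 CPM (KD). Neither passed the test. *SNHG15* and *SNHG4* fell, *SNHG15* from 440 to 90.1 CPM (WT) and from 73.2 to 37.2 CPM (KD) (fitted log2 ratio −1.64 ± 0.42, edgeR adjusted p = 0.00535). Reads of mature snoRNAs inside these spans cannot be told from nascent reads here. *ANKRD30BL*, among the most abundant genes, was at −1.44 in WT and 0.40 in KD, and *B3GNT6* at −2.19 and 0.59, so their pairs moved apart. Of the 1736 genes tested with the highest density 72.3% had the same direction in both pairs, against 81.8% of all genes tested.

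**Figure D5:**
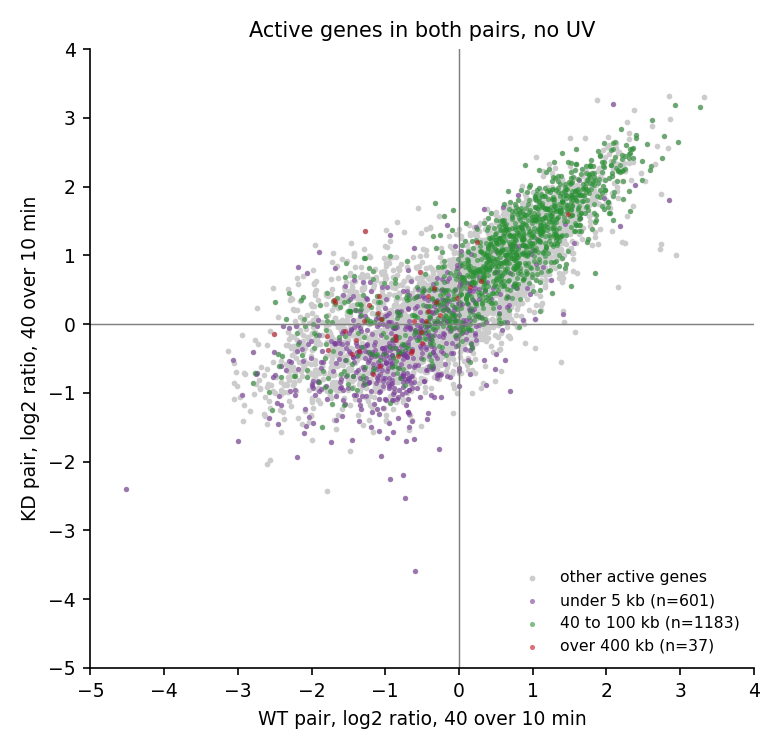
Log2 ratio of 40 over 10 min in the WT pair (horizontal axis) and the KD pair (vertical axis) for active genes without UV, 1 point a gene. Genes of 40 to 100 kb (green) lie mostly in the upper right, genes under 5 kb (purple) mostly in the lower left, and genes over 400 kb (red) mostly left of 0.

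The largest falls were in genes with few reads. *SIGLEC1*, a sialic acid receptor of macrophages, had 231 and 26 reads in WT and 159 and 32 in KD (fitted log2 ratio −3.19 ± 0.47, edgeR adjusted p = 5.27e-05). *C16orf78* had 165 and 28 reads in WT and 133 and 26 in KD. *USP2*, a ubiquitin-specific protease, had 340 and 74 in WT and 613 and 160 in KD, and its call was lost with its smallest transcript. *PAX1*, a developmental transcription factor, had 231 and 92 in WT and 106 and 23 in KD, and *SPON2*, a matrix protein, 205 and 68 in WT and 209 and 49 in KD. The 40 min libraries were below the 10 min libraries in each of these genes. The others among the 12 were *AC068473.3*, *ZNF571-AS1*, *CCDC154*, *PRSS33*, *LAMP5*, *GCGR* and *NCKAP1L*. Scaled on the restricted families, 9 of the 12 stayed lower and *CCDC154*, *LAMP5* and *NCKAP1L* did not. Of the 70 genes lower under that scaling, 69 had under 300 reads in every library.

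Called falls were counted in families with few active members, where 15.7% of all genes tested and 19.0% of genes below the density minimum were lower. Of 51 restricted-family genes tested, families chosen after the data were seen, 0 rose and 21 fell (41.2%), with medians of −1.42 in WT and −0.51 in KD. Their median density was 0.21 CPM per kb. Of genes tested at median densities of 0.15 and 0.23 CPM per kb, 27.8% and 24.4% fell. Of 26 HOX genes 10 fell, of 52 protocadherins 15, of 31 keratins 10 and of 370 LINC RNAs 92, with 9 LINC RNAs higher. Most members of each of these families did not pass. The LINC RNAs (24.9%, median density 0.17 CPM per kb) were near the 27.8% of 1736 genes of low density, at a median of 0.15 CPM per kb. The protocadherins (28.8%) had a median density of 0.35, and of 1736 genes at a median of 0.34 CPM per kb 20.4% fell. Over all lncRNA genes 104 of 1531 rose (6.79%) and 331 fell (21.6%), whereas 2529 of 15370 protein-coding genes rose and 2310 fell. Among active genes alone 16.0% of 194 lncRNAs and 25.2% of 5127 protein-coding genes rose. The lncRNAs were shorter, with a median span of 11.3 kb against 23.3 kb in the active genes.

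The same times were taken after 10 J/m2 of UV-C in the other 4 libraries. In active genes of 60 to 100 kb the median log2 ratio after UV was 0.23 in WT and 0.37 in KD, against 0.73 and 1.12 without UV under the same scaling. Under 5 kb it was 0.54 and 0.27 after UV against −0.73 and −0.31 without. The difference between 40 to 100 kb and 5 to 20 kb genes was −0.26 and −0.04 after UV and 0.86 and 0.86 without. With 2 pairs on each side no exact test of this difference can pass 0.05, and it is given as a description. *INTS6* had log2 ratios of 0.83 and 1.78 after UV, *ELL2* 0.17 and 0.69, *VCL* 0.60 and 0.69 and *EGR1* 3.91 and 2.75.

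Gene by gene, the difference between the time terms with and without UV was tested over all 8 libraries. By edgeR 0 of 17840 genes passed in either direction, with 1922 positive and 1449 negative at an unadjusted p under 0.05. RLE size factors gave 121 and 793 calls and DESeq2 189 and 1145, where negative means a smaller rise after UV. No single gene is therefore named as differing.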

How the data were processed

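GRO-seq libraries were sequenced as single-end reads. The submitters' processing notes name BWA 0.5.9, SAMtools and the build hg38. The authors deposited raw read counts per transcript over its whole span, introns included. The tool that counted, whether it respected strand, and the annotation it took were not given in the sources used here. Of the 41581 transcripts, 97.6% were found in GENCODE 44. Each gene name kept its longest transcript. Over 10% of the span overlapped another gene on the same strand in 379 genes and on the opposite strand in 1504, and such reads may be shared.

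The counts were tested with edgeR 4.0.16 (R 4.3.3; quasi-likelihood F-test, TMM, genes filtered by filterByExpr at min.count 10 and min.total.count 15), with cell line and time as terms in the 4 libraries without UV. P-values were adjusted by Benjamini-Hochberg over all genes tested and called under 0.05. The design leaves 1 residual degree of freedom. Pair ratios are log2 CPM with a prior count of 2. Genes were named where they changed most in the pair that moved less (12 per direction, at least 100 reads), as the 2 most abundant and the few called members of a list, as the most abundant gene of a span class, as long genes with several segments, or as long genes of interest. Members and lists were chosen with earlier results of these data known. Alternatives were other scalings and filters, DESeq2 1.42.0, limma-voom 3.58.1, the smallest transcript, thinned reads and each pair alone.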

Additional observations from a re-analysis of the deposited data

Results flagged for a closer look

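Several groups of genes moved in opposite directions with and without UV, or in the WT and the KD pair, when each pair's ratio was read less the median of all genes tested. Active genes under 5 kb were at −0.29 in WT and −0.27 in KD without UV, and at 0.43 and 0.16 after UV. Glycolytic genes were at −0.35 and −0.13 without UV and at 0.38 and 0.11 after UV. Cytosolic ribosomal protein genes were at −0.31 and −0.23 without UV and at 0.50 and 0.20 after UV. Fibroblast markers without UV were at −0.65 in WT and 0.22 in KD. The sign depends on the reference. After UV the median of active genes was 0.37 in WT and 0.39 in KD. Genes under 5 kb had unadjusted medians of 0.54 and 0.27, glycolytic genes of 0.48 and 0.22 and ribosomal protein genes of 0.61 and 0.31, so all 3 groups were above active genes in WT and below them in KD. These differences were not tested.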

How the results depend on the processing

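With 1 library per condition no replicate could be left out. The replicate block is already in the fit as the cell line, and no other pairing exists. Reads scaled on the restricted families (chosen after the data were seen) gave 4648 called rises and 70 falls, library totals 6054 falls, TMM on genes of 5 to 20 kb 1647 falls, and an adjusted p under 0.1 gave 4258 falls. The 2-fold rises numbered 3935 with the restricted families, 1150 with at least 50 reads in every library, 3194 at 1.5-fold and 506 at 3-fold. The 2-fold falls numbered 1590 with library totals, 200 with TMM on genes of 5 to 20 kb, 33 with the restricted families, 716 with at least 50 reads in every library, 2098 at 1.5-fold and 29 at 3-fold. The cause of these shifts was not tested.

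The difference in median log2 ratio between 40 to 100 kb and 5 to 20 kb genes was 0.85 in WT and 0.85 in KD with library totals, 0.88 and 0.87 with TMM on 5 to 20 kb genes, 0.87 and 0.87 after thinning, 0.81 and 0.80 with the smallest transcripts, 0.83 and 0.80 with activity from 0.5 CPM per kb, 0.94 and 0.83 from 2 CPM per kb, 0.64 and 0.63 by the 10 min libraries, 0.84 and 0.84 by the 40 min libraries, and 1.01 and 1.24 with the restricted-family density subtracted. It was 0.86 in WT with RLE size factors. The difference between segments at 30 to 100 kb and under 10 kb was 0.33 in WT and 0.54 in KD. It was 0.16 in WT with segments of at least 5 kb and 0.73 in KD after the subtraction. With segments sharing a start only it was 0.25 in WT and 0.45 in KD, and with those sharing an end only 0.68 and 0.59. UV by time gave 121 positive and 793 negative calls with RLE size factors and 189 and 1145 with DESeq2. With the smallest transcript *ACTN1* turned to −0.96, *ENO1* to 1.15 and *ITGA3* to −0.74. Of 1749 values of named genes under the alternatives 1604 kept their direction and side of the threshold, 107 newly passed it, 24 no longer did, and 3 turned. Of 487 list medians 398 moved by less than the spread between pairs.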
